A study of Drosophila melanogaster with 8 samples.

Results

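Guanines of the Invader 4 long terminal repeat (LTR) were examined for base substitutions among the sequenced LTR copies. Invader 4 is an LTR retrotransposon of Drosophila melanogaster, and the amplified stretch of its LTR is present in many copies. All positions with G in the deposited LTR sequence were taken, which gave 47 guanines among 149 positions. Of these, 8 follow a C and are the guanines of CpG dinucleotides (positions 2, 16, 20, 25, 36, 64, 68 and 115), and 39 follow another base. Positions are counted from 1 at the 5′ end of the deposited sequence. Because the element has many copies, the reads have no single chromosomal position, and the genome was not used here.

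DNA came from whole bodies of mixed-sex w1118 adults, 3 days after hatching, which were wild type or homozygous for a Dnmt2 mutant allele that the labels do not specify further. Dnmt2 is a member of the DNA cytosine methyltransferase family that methylates transfer RNA. Each genotype was sampled under standard culture, after heat shock at 37 °C for 1 h with 5 h at room temperature, and after 1 day or 3 days of recovery. Each of the 8 groups had 1 library and no replicate. Tests on reads between libraries therefore speak of those libraries and not of the conditions. The number of flies in each library is not given in the sources used here, and the amplicon does not hold the Dnmt2 gene, so the genotype labels were not checked.

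The DNA was treated with bisulfite, which converts unmethylated C so that it is read as T, and was then amplified by PCR and sequenced on the 454 platform. Guanines are not converted, so a G read as A can report a base that differs between the LTR sequence and the amplified molecule. It can also be an error of PCR or sequencing. Error rates were not measured, so low shares cannot be told apart from errors. A change from G to A or from A to G is a transition, and a change between a purine and a C or T is a transversion. As textbook background, deamination of 5-methylcytosine in a CpG leaves C to T on its own strand and G to A at the guanine of the opposite strand. Old copies of a transposable element also carry inherited substitutions, and substitutions inherited together on 1 copy appear together in the same read. An unmethylated C inherited at a guanine is converted and read as T, so a single T call does not show whether the molecule held C or T. Changes read as C and as T were therefore summed as transversions in the class shares, and the calls of C beside the common T changes are given further on.

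The libraries held 1505 to 2670 reads, 16435 in all, and coverage of a guanine in a library lay between 1460 and 2670 reads. At the guanines, 763314 bases were counted. The libraries were split here into a lower and a higher set by the order of the library numbers in the deposited data, 4 in each. The labels do not name these sets, which were noticed in the shares given below. The lower numbers belong to the wild type libraries at heat shock and 3 days and the mutant libraries at standard and 1 day. The higher numbers belong to wild type at standard and 1 day and to the mutant at heat shock and 3 days. Gaps at the last guanine took 2.99% to 4.01% of reads in the lower-number libraries and 4.79% to 7.27% in the higher-number libraries. These sets cross the genotypes and stages. Every genotype comparison within a stage is also a comparison between the sets. So is every stage comparison made here except 1 day against standard. In these comparisons genotype or stage cannot be told apart from set. Heat shock and 3 days of a genotype also share a set, but they were not compared with each other.

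Few of the possible substitutions passed a mean share of 0.5%, at guanines as at other bases. Over the 8 libraries, 17 of the 141 possible substitutions at guanines had a mean share of reads over 0.5%, and these are called common below. This was 12.1% at guanines. The background over all 388 substitutions considered, which leaves out C to T and T to C, was 9.02%. The other bases had 13.0% at cytosines, 6.25% at thymines and 5.43% at adenines. These percentages cover unlike kinds of change, since at cytosines and thymines only transversions were counted. At guanines 23.4% of changes to A passed, 12.8% of changes to T and 0% of changes to C. The common substitutions at guanines were 11 changes from G to A and 6 from G to T, with 0 from G to C. They lay at 16 guanines between positions 13 and 115, and 31 guanines carried none. Position 85 carried both G to A and G to T. The 9 guanines after position 115 carried no common substitution, although 3 common substitutions of other bases lay there. Just inside the threshold were G31A at 0.880%, G85T at 0.785% and G47A at 0.539%. Just outside it were G106A at 0.433%, G41A at 0.278% and G47T at 0.264%.

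**Figure D1:**
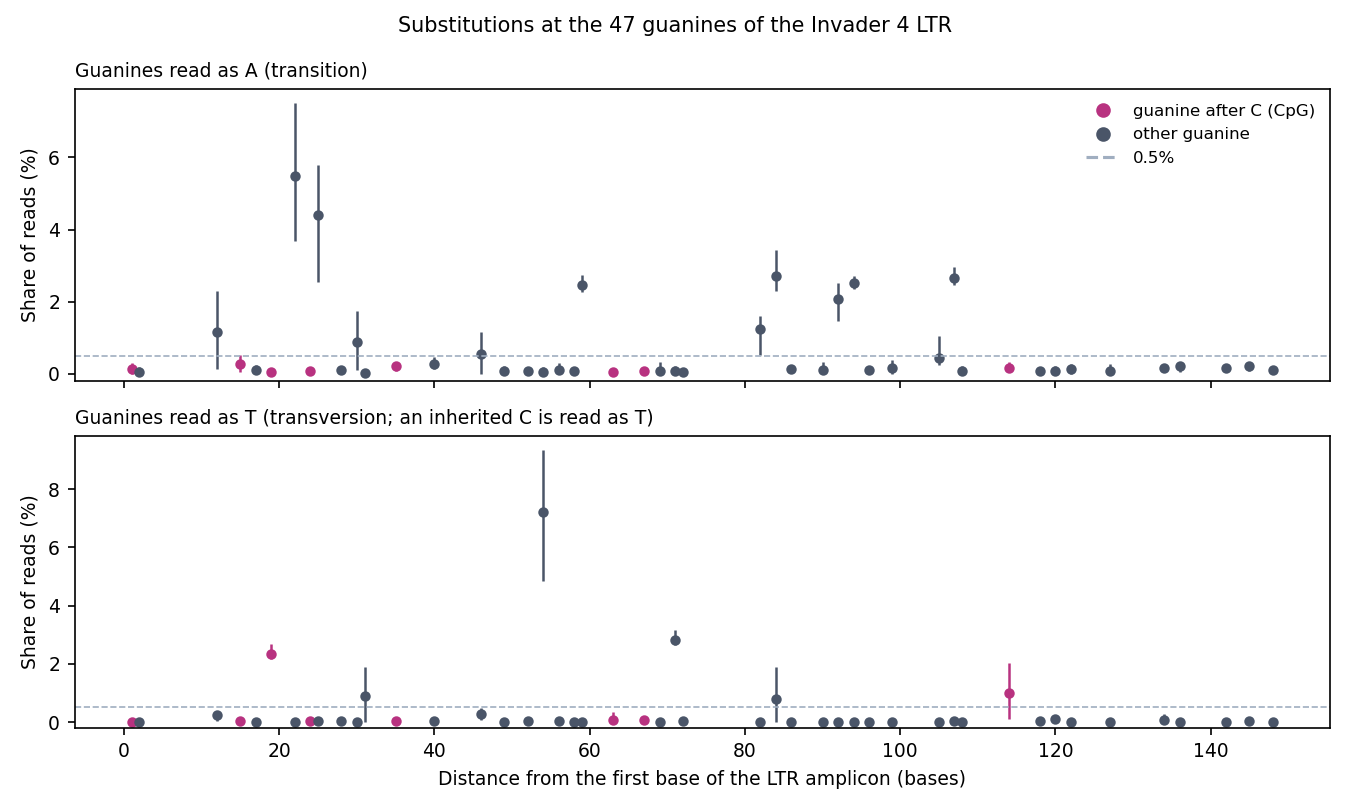
Share of reads with A (upper panel) or T (lower panel) at each of the 47 guanines, in percent, against distance from the first base of the amplicon. Points are means of the 8 libraries and lines run from the lowest to the highest library. The mean of no guanine after C lies above the dashed line at 0.5% in the upper panel, where the highest library at position 16 reaches 0.525%, whereas the means at position 20 (2.35%) and position 115 (1.00%) do so in the lower panel.

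The 8 substitutions that later differed between the genotype libraries at all 4 stages, and G20T as the other CpG guanine with a common substitution, are shown with the guanine in capitals and 2 bases on each side.
G13A: ctGtc
G23A: ctGcg
G31A: gaGgc
G32T: agGca
G47A: ctGca
G55T: gaGtg
G85T: gtGtg
G115T: acGcc
G20T: gcGct
The list holds the only CpG guanines with a common substitution, at positions 20 and 115, and both carry a transversion.

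G to A was less frequent at guanines of a CpG than at other guanines in every library. It took 0.1252% ± 0.0262 (SD, n = 8 libraries) of bases at guanines after C and 0.760% ± 0.0380 of bases at other guanines. The share at CpG guanines ranged from 0.0772% to 0.158% and at other guanines from 0.708% to 0.813%, so the classes did not overlap. The difference was -0.635 percentage points, lower in 8 of 8 libraries (two-sided exact sign-flip permutation test over libraries, p = 0.0078125, the smallest that 8 libraries allow). The libraries share the same LTR positions, so this p measures the spread between libraries and not between positions. With identical reads counted once, the shares were 0.290% after C and 1.18% after other bases.

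Common changes to A were found at other guanines alone. None of the 8 CpG guanines had a common change to A, against 11 of 39 other guanines. By the preceding base, common changes to A were found at 4 of 18 guanines after A, 2 of 6 after G and 5 of 15 after T. The median position had 0.111% G to A among CpG guanines and 0.119% among other guanines. Without the common substitutions the shares were 0.1252% ± 0.0262 after C and 0.118% ± 0.0171 after other bases. Guanines with a common change to A were left out with all their bases, which left 28 of the 39 other guanines. The difference of 0.00718 percentage points between these shares had the opposite sign and did not pass (exact sign-flip permutation test over the 8 libraries, p = 0.414). With those bases kept in the total, the share after other bases would be lower, which was not tested. The threshold was applied to these same shares and removed other guanines alone. This test therefore cannot show where the class difference comes from. With 8 CpG guanines in the amplicon, a class difference rests on few positions.

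Single CpG guanines all had a mean G to A share under 0.5%. The highest mean was at position 16, at 0.255%, with a range of 0.0536% to 0.525% over libraries. Position 36 followed at 0.208%, position 115 at 0.153% and position 2 at 0.134%. The remaining 4 lay between 0.0427% at position 20 and 0.0868% at position 68. The ranges over libraries of positions 16 and 36 overlapped. Shares this low cannot be told apart from errors of PCR or sequencing.

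**Figure D2:**
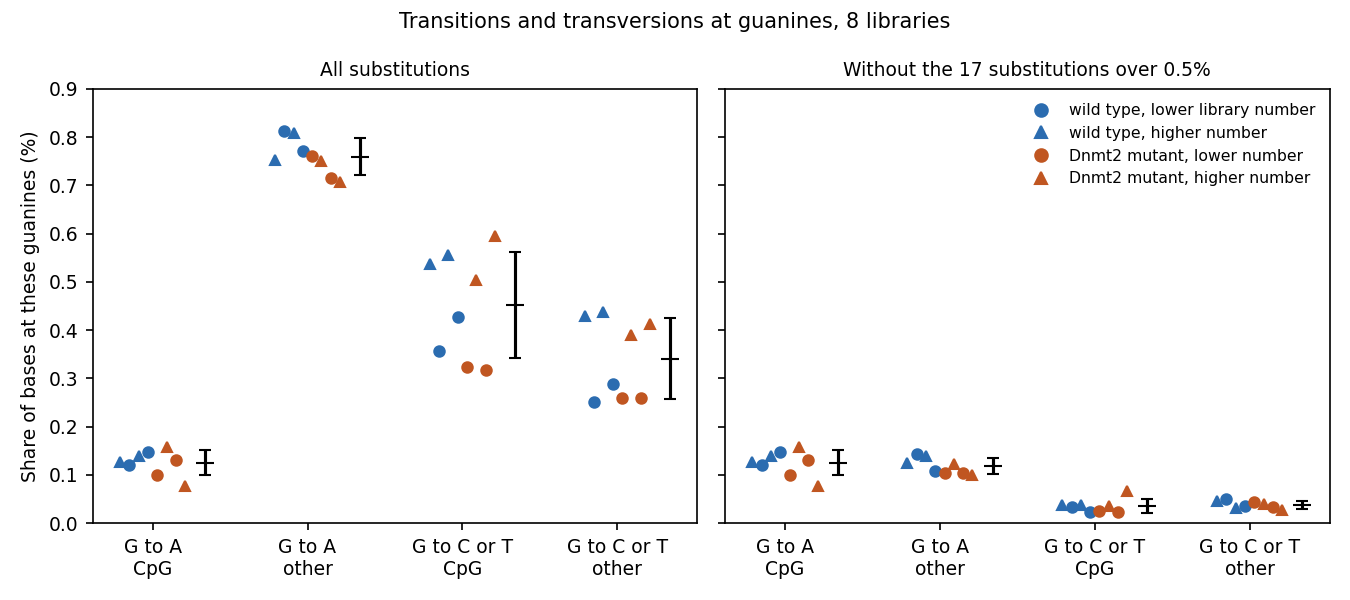
Share of bases at guanines read as A, or as C or T, in percent, for guanines after C (CpG) and other guanines, with all substitutions (left) and without the 17 common ones (right). Each point is 1 library, and the black mark is the mean ± SD of 8 libraries. On the right, G to A is taken over guanines without a common change to A, and G to C or T over all guanines. G to A at other guanines drops from 0.760% to 0.118% between the panels, next to the 0.1252% at CpG guanines.

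Transitions exceeded transversions at guanines. G to A took 0.651% ± 0.0333 of bases and G to C or T 0.360% ± 0.0875 (SD, n = 8 libraries). The difference was 0.291 percentage points, higher for transitions in 8 of 8 libraries (exact sign-flip permutation test, two-sided, p = 0.0078125), and 0.486 with identical reads counted once. As for the CpG difference, this p measures the spread between libraries and not between positions. Of the transversions, T accounted for 0.352% and C for 0.00835% of bases. Without the common substitutions, transitions took 0.120% ± 0.0166 and transversions 0.0378% ± 0.00580. These shares have unlike totals. Transitions were taken over the 36 guanines without a common change to A, and transversions over all 47. Over all 47 guanines the transition share would be lower, which was not computed.

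CpG guanines carried relatively more transversions than transitions. G to C or T took 0.452% ± 0.111 of their bases, against 0.1252% for G to A. At other guanines, transversions took 0.341% ± 0.0835. The CpG value stems mostly from G20T and G115T, since without common substitutions transversions took 0.0354% ± 0.0139 at CpG guanines and 0.0382% ± 0.00789 at others. The class values therefore follow which few positions hold a common substitution.

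G to A at guanines was more frequent than the reverse change, A to G at the 43 adenines. A to G took 0.482% ± 0.0272 of bases, and the difference of 0.169 percentage points was positive in 8 of 8 libraries (exact sign-flip permutation test, p = 0.0078125). With identical reads counted once it was 0.104, positive in 7 of 8 (exact sign-flip permutation test, p = 0.015625). Without common substitutions the order turned: A to G took 0.246% ± 0.0179 against 0.120% for G to A, a difference of -0.126 percentage points (exact permutation test, p = 0.0078125). Positions over the threshold were left out with all their bases, which left 36 guanines and 38 adenines. The threshold was applied to these same shares, so this test cannot decide which change is more frequent. Common changes were found at 11 of 47 guanines for G to A and at 5 of 43 adenines for A to G. The p-values of these permutation tests measure the spread between libraries and not between positions. Shares without the common substitutions may hold errors of PCR or sequencing.

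The common substitutions ranged from under 1% to 9.36% of reads. G55T was the most frequent. In wild type its share was 8.30% under standard culture, 4.84% after heat shock, 9.36% at 1 day and 6.41% at 3 days. In the Dnmt2 mutant the same stages gave 5.66%, 8.15%, 6.09% and 9.03%. The 4 higher-number libraries all lay above the 4 lower-number libraries, and the genotypes overlapped.

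G23A ran the opposite way. Its share in wild type was 3.98%, 7.09%, 4.17% and 6.34% at standard, heat shock, 1 day and 3 days. In the Dnmt2 mutant it was 7.52%, 4.81%, 6.35% and 3.69%. The lower-number libraries all lay above the higher-number ones.

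G26A, at the guanine just after a CpG guanine, had 2.55%, 5.31%, 4.60% and 5.78% in wild type at the same stages. In the Dnmt2 mutant it had 5.59%, 3.26%, 4.35% and 3.83%. Its number sets overlapped, with means of 5.26% ± 0.636 (lower) and 3.56% ± 0.870 (higher; SD, n = 4 libraries each).

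A further 6 substitutions had low shares in the lower-number libraries. G85T was read in 0 of 7019 reads of the 4 lower-number libraries (a count of 0 allows up to 0.0427%) and in 1.90%, 1.65%, 1.22% and 1.51% of reads in the higher-number libraries (wild type at standard and 1 day, then the mutant at heat shock and 3 days). G47A had a mean of 0.0119% in the lower-number and 1.07% in the higher-number libraries. G32T had means of 0.0735% and 1.69%, G31A of 0.146% and 1.61%, G115T of 0.240% and 1.76%, and G13A of 0.272% and 2.06%. Among the lower-number libraries wild type at 3 days was highest for G115T, at 0.568%, and without it the lower-number mean was 0.130%. Without the same library the lower-number mean of G32T was 0.0358%. The lower-number mean of G47A rests on the mutant at 1 day, at 0.0477%, since the other 3 libraries had 0. None of these 6 substitutions overlapped between the sets.

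In all, 8 of the 17 common guanine substitutions did not overlap between the number sets. Of these, 7 were higher in the higher-number libraries and G23A was lower. Among the common substitutions at other bases, 5 of 18 did not overlap. Between genotypes 1 of the 17 did not overlap, G72T, which was also the only 1 of all 35 common substitutions that did not. It had 2.73% to 3.18% in the 4 wild type libraries and 2.65% to 2.68% in the 4 Dnmt2 mutant libraries, and no stage passed the test for it. The sets were noticed in these same shares, so no test of the set difference was made.

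Other substitutions were steady across libraries. G20T had 2.35% ± 0.165 (SD, n = 8), G60A 2.46% ± 0.157, G72T 2.80% ± 0.196, G95A 2.52% ± 0.115 and G108A 2.66% ± 0.148. G85A at 2.72% ± 0.377 and G93A at 2.08% ± 0.341 varied more. G83A had 1.25% ± 0.337, with its lowest library, the Dnmt2 mutant at 3 days, at 0.531% and its highest at 1.60%.

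**Figure D3:**
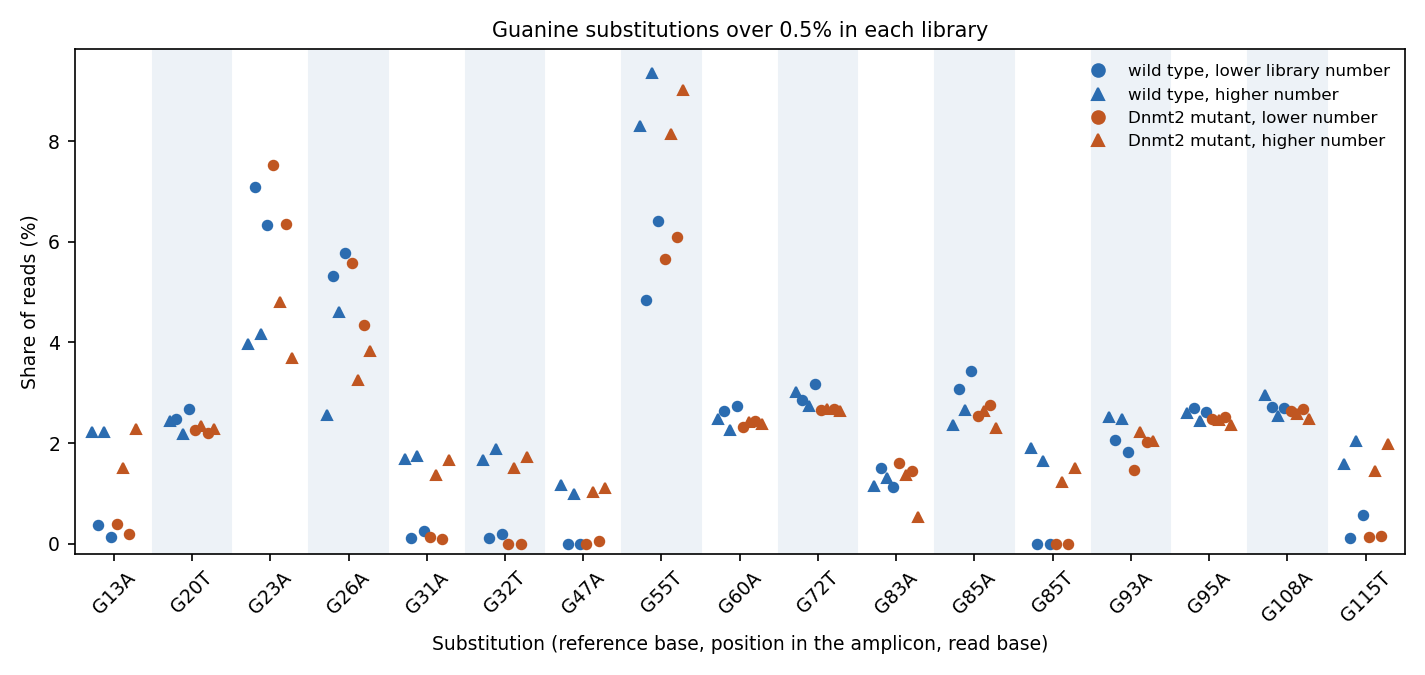
Share of reads, in percent, with each of the 17 common guanine substitutions. Each point is 1 library, coloured by genotype, with circles for lower and triangles for higher library numbers. G13A, G31A, G32T, G47A, G85T and G115T lie at or below 0.568% in the circles, whereas G20T, G60A, G95A and G108A lie between 2.17% and 2.96% in all libraries.

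Many of the common substitutions occurred together in single reads. Linkage was measured as r squared, the squared correlation of carrying both substitutions over the reads of a library, which is 1 when they are always carried together. Of 135 pairs at different positions, 14 reached an r squared of 0.2 in at least 4 libraries. These pairs joined 10 substitutions into 3 groups, and 7 substitutions belonged to none. In the other 121 pairs the highest r squared in any library was 0.0329. Of these, 116 had fewer shared reads than the product of their shares gives, and 44 had 0. These are descriptions over reads, since PCR copies of a molecule are not independent.

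The largest group held G20T, G60A, G72T, G95A and G108A, which span 88 bases. All 5 were carried by 353 of 16090 reads with a base at each of the 5 positions, or 2.19% (95% Wilson interval 1.98% to 2.43%, counting error only). The product of the shares, summed over libraries, gives 0.000164 reads. The group took 2.23% ± 0.123 of reads in the lower-number and 2.17% ± 0.134 in the higher-number libraries (SD, n = 4 each), so it did not differ beyond its spread. Among the 16090 reads, 91 carried exactly 1 of the 5, 23 carried 2, 8 carried 3 and 22 carried 4. Of reads with 2 or more, 86.9% carried all 5. Within the group, r squared ranged from 0.792 for G20T with G72T to 0.921 for G20T with G60A, where 372 of the 385 reads with G20T also carried G60A.

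Reads with this group also differed from the LTR sequence at other bases. Of the carriers, 99.7% also had A37G, A69G, C102G and C112A each, 99.4% had A111G and 98.0% had C129A. T9A was found in 74.5% and T89A in 52.7% of them. Among reads with none of the 5 substitutions these partners were found in 0.00643% of reads for C112A up to 5.88% for C129A. Several other common guanine substitutions were not found in the 353 carriers, including G55T, G85A, G93A and G115T, and G23A was found in 1.

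The other groups were found in the higher-number libraries alone. G31A, G32T and G115T were carried together by 110 of 9038 reads there, or 1.22% (95% Wilson interval 1.01% to 1.46%), and by 0 of 6945 reads in the lower-number libraries, which allows a share of up to 0.0432%. G13A and G85T were carried together by 132 of 9224 reads, or 1.43% (1.21% to 1.69%), against 0 of 7016, which allows up to 0.0428%. Floors are 3 reads of the total in the set. Of the reads with G85T, 90.4% also carried G13A. G115T is the CpG transversion at position 115, which 65.3% of the time came with G31A.

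**Figure D4:**
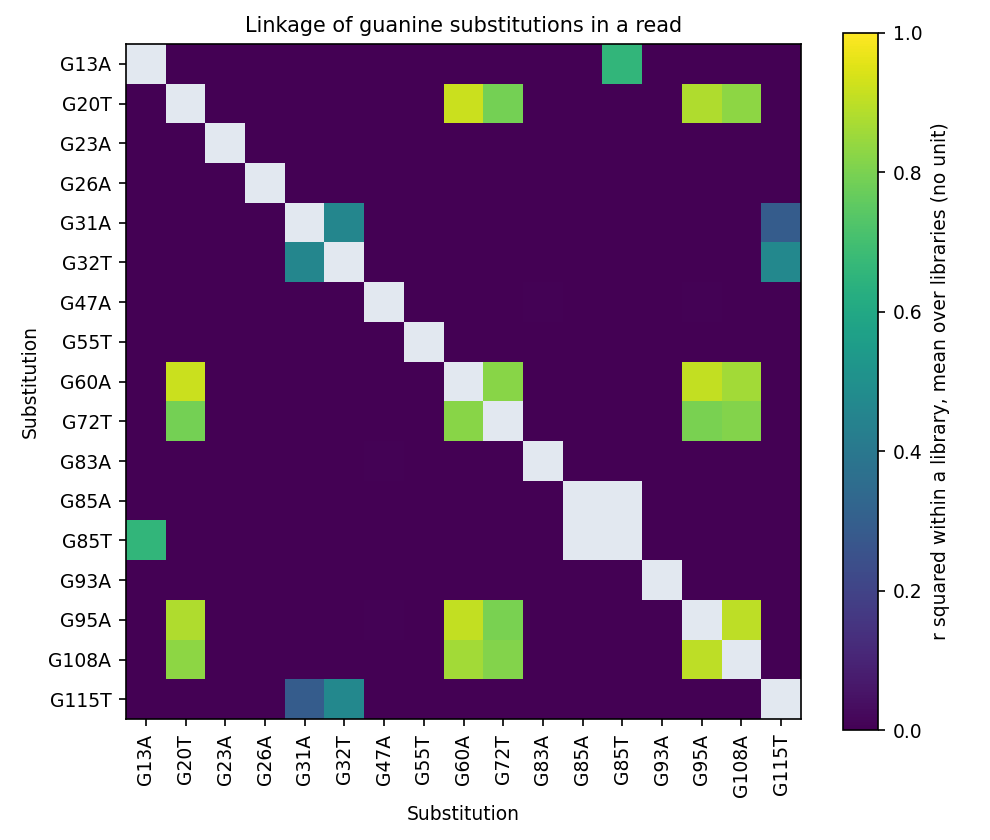
Linkage of the 17 common guanine substitutions, as r squared within a library averaged over the libraries in which both occur, from 0 (dark) to 1 (bright). Grey cells are the same position. The block of G20T, G60A, G72T, G95A and G108A lies between 0.792 and 0.921, and G13A with G85T is at 0.657.

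Some of the remaining substitutions were linked to changes at other bases. G93A came with its neighbour A94T, with 325 of 343 G93A reads carrying both and a mean r squared of 0.926. G83A came with A17G in 102 of 200 reads, with a mean r squared of 0.325. G55T came with C15A in 275 of 1215 reads, in which r squared ranged from 0.000347 to 0.310 over libraries. G47A came with A69G in 90 of 100 reads and with C129A in 85 of 98, where the products of the shares give 4.14 and 8.89 reads. The r squared of G47A with A69G reached 0.2 in 2 libraries, with 0.211 as the highest. G23A, G26A and G85A had no partner at an r squared of 0.2 in 4 libraries.

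Most reads carried at most 1 common guanine substitution. Of 15792 reads with a base at all these positions, 70.9% carried no common guanine substitution and 24.3% carried exactly 1. Reads with 2 made up 1.57%, with 3 0.754%, with 4 0.146%, with 5 2.23% and with 6 0.0317%. The 3 linked groups held 5, 3 and 2 substitutions. There were 87 distinct combinations, of which the 16 most frequent held 98.8% of reads. The most frequent were G55T alone at 7.40%, G23A alone at 5.12%, G26A alone at 4.26%, G85A alone at 2.63%, the 5-substitution group at 2.20% and G93A alone at 2.10%. Over all 47 guanines, 12554 of 16435 reads had no G to A, 35 had 4 or more, and the highest number in 1 read was 9.

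**Figure D5:**
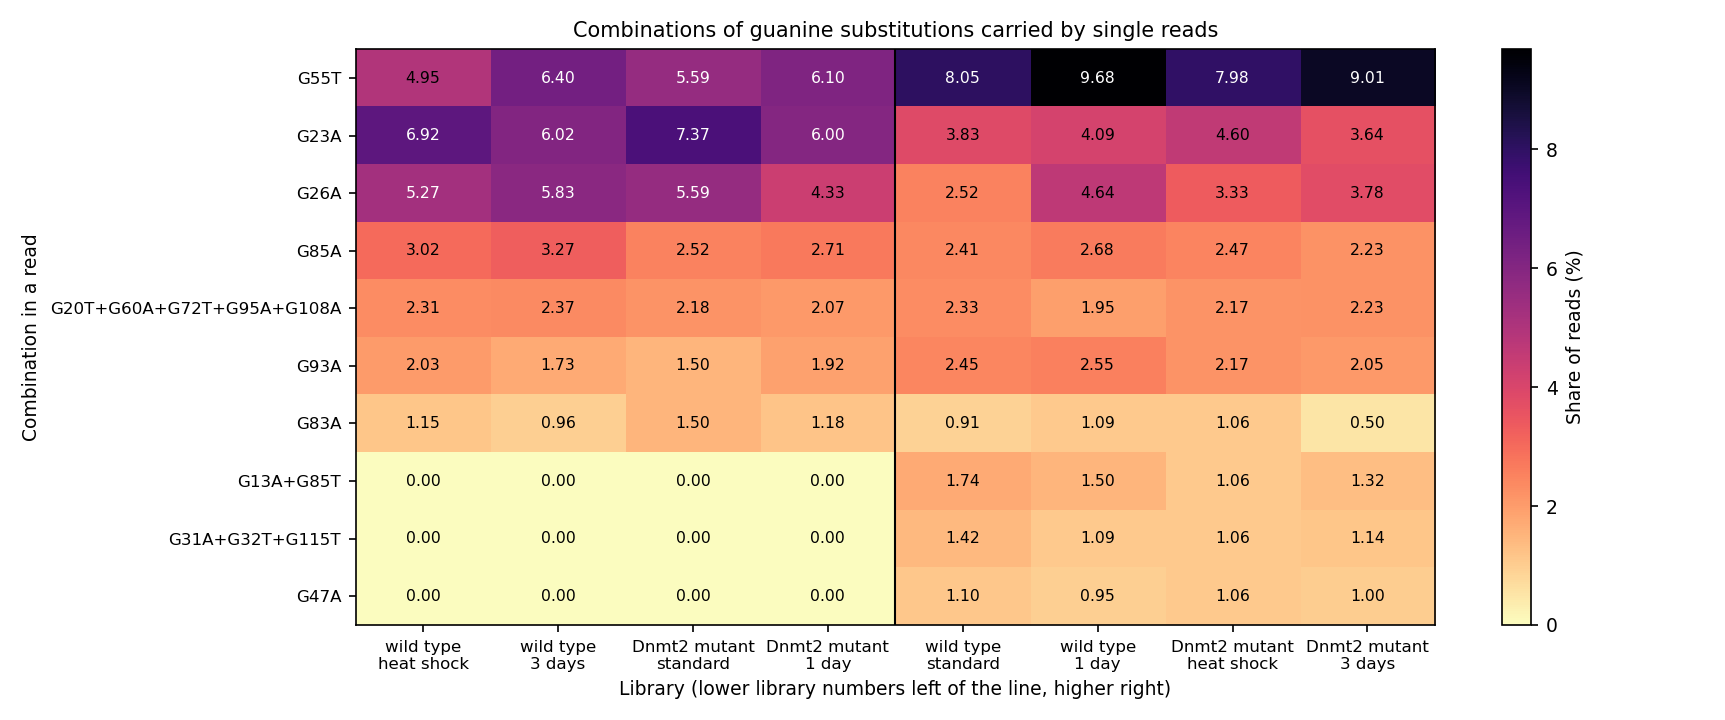
Share of reads, in percent, with each combination of common guanine substitutions, by library, for the 10 most frequent combinations other than none, over reads with a base at all these positions. Lower library numbers stand left of the line and higher right. The combinations G13A with G85T, G31A with G32T and G115T, and G47A alone are at 0.00 left of the line, whereas the 5-substitution combination lies between 1.95% and 2.37% throughout.

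Bases read as C beside the common T changes were counted against the reference cytosines, of which 1.67% (7230 of 433827 calls) were read as C. This comparison was chosen after the data were seen. At position 55, C made up 23 of 1238 C or T calls, or 1.86% (95% Wilson interval 1.24% to 2.77%), close to the 20.5 calls that the cytosine level gives. These calls were pooled and uneven over libraries, with C at 0% to 0.377% of bases. After heat shock wild type had 7 C beside 90 T, and the mutant had 0 C beside 167 T. At position 72, 0 of 459 calls were C, which allows up to 0.654%, against 7.66 calls at the cytosine level. At position 20, 3 of 388 were C, against 6.47, and at position 85, 5 of 152 against 2.46. Position 32 had 1 of 164 and position 115 had 0 of 176, which were too few to show a difference. C at guanines without a common T took 0.00481% of bases.

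Retention of C at the reference cytosines did not pass the test for any of 6 combinations, each compared with reads that carried no common guanine substitution. The differences in percent of C ranged from -0.144 percentage points for G93A alone to 0.173 for G26A alone. The exact sign-flip permutation tests over 8 libraries, with Benjamini-Hochberg adjustment over the 6, gave p from 0.5625 to 0.71875. G26A alone had 1.87% ± 0.230 and reads with none 1.70% ± 0.157 (SD, n = 8 libraries), higher in 6 of 8 libraries. This comparison was also chosen after the data were seen.

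The genotypes overlapped in the pooled share of G to A, and their difference did not pass the test. Wild type libraries had 0.674% ± 0.0238, and the mutant libraries had 0.628% ± 0.0243 (SD, n = 4 each). The mutant minus wild type difference was 0.00280 percentage points at standard, -0.0463 at heat shock, -0.0774 at 1 day and -0.0646 at 3 days, so the mutant was lower in 3 of 4 stages. The mean difference was -0.0464 percentage points (exact exchange of labels within stages, two-sided, p = 0.25). With 4 stages the smallest p is 0.13, so this design could not pass 0.05. Whether labels of some libraries were exchanged was not tested. With the genotypes swapped at heat shock and 3 days the mean difference was 0.00907. This swap makes the labels equal to the number sets, so the value is the lower-set mean (0.656%) minus the higher-set mean (0.647%). Swapping at standard and 1 day instead gives the same size with the opposite sign. Within the number sets the difference was -0.0480 (lower) and -0.0448 (higher). Transversions at guanines followed the sets, with 0.449% against 0.271% at standard and 0.269% against 0.409% at heat shock for wild type and mutant.

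Fisher's exact test on reads, with Benjamini-Hochberg adjustment over all substitutions tested in a comparison, found differences between the genotype libraries at every stage. Under standard culture 9 of 38 guanine substitutions differed, with 2 higher and 7 lower in the Dnmt2 mutant. Of all substitutions tested there, 13.2% differed (5.66% higher and 7.55% lower). After heat shock 10 of 39 differed, with 7 higher and 3 lower, beside 11.9% of all (6.42% higher and 5.5% lower). At 1 day 8 of 36 differed, with 1 higher and 7 lower, beside 9.82% of all (2.68% higher and 7.14% lower). At 3 days 9 of 32 differed, with 7 higher and 2 lower, beside 11.7% of all (7.45% higher and 4.26% lower). At every stage the library with the higher number had more of the 7 substitutions that were higher in that set, and less G23A. This holds by construction, since these substitutions were picked for not overlapping between the sets. Each stage pairs 1 library of each set.

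At all 4 stages 8 guanine substitutions were called, and these were the 8 that did not overlap between the number sets. Their sign alternated between stages with the sets, which follows from the lack of overlap. G85T was found in 0 of 1497 reads in the Dnmt2 mutant and 50 of 2629 in wild type under standard culture (Fisher's exact test, adjusted p = 1.81216e-08). After heat shock it was found in 25 of 2043 mutant reads and 0 of 1850 wild type reads (Fisher's exact test, adjusted p = 1.0988e-05). G32T was called at 1 day with 0 of 2093 mutant and 44 of 2339 wild type reads (Fisher's exact test, adjusted p = 7.73114e-11). G23A differed between mutant and wild type by 3.55 percentage points under standard culture and by -2.28 after heat shock (Fisher's exact tests, adjusted p = 1.80019e-05 and 0.0272). These p-values compare single libraries and cover counting error only.

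Stage comparisons gave calls where the libraries came from different number sets, so stage and set cannot be told apart. Between the wild type heat shock and standard libraries 9 of 41 guanine substitutions differed, with 2 higher and 7 lower after heat shock. Of all substitutions tested there, 9.4% differed (3.42% higher and 5.98% lower). Between the mutant libraries of the same stages 9 of 31 differed, with 7 higher and 2 lower, beside 12.1% of all (8.08% higher and 4.04% lower). At 3 days against standard, 9 of 38 differed in wild type, beside 11.8%, and 9 of 31 in the mutant, beside 14.4%.

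The stage comparisons made within a number set, 1 day against standard, gave 1 call in all. Between wild type at 1 day and standard, 1 of 43 guanine substitutions differed, beside 0.8% of all tested. It was G26A, which had 68 of 2668 reads under standard culture and 108 of 2347 at 1 day, a difference of 2.05 percentage points (Fisher's exact test, adjusted p = 0.0104). With identical reads counted once the difference was 1.35 percentage points and the call was lost (Fisher's exact test, adjusted p = 1). Between the mutant libraries of these stages 0 of 26 differed, beside 0%, with 0 guanine substitutions at an unadjusted p under 0.05 and 5 among all 88 substitutions.

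The genotype difference in the stage change was tested on odds ratios with Zelen's exact test. It was called for 10 of 54 guanine substitutions at heat shock, beside 10% of all tested, for 9 of 54 at 3 days, beside 8.78%, and for 1 of 55 at 1 day, beside 1.21%. Between heat shock and standard, the share of G55T differed by -3.46 percentage points in wild type and by 2.49 in the mutant, a difference of 5.95 (Zelen's exact test, adjusted p = 3.38125e-06). Standard and heat shock come from opposite number sets in the genotypes, so the contrast is also the set contrast, and the part of each cannot be told apart.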

How the data were processed

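Reads of bisulfite-treated Invader 4 LTR amplicons were aligned to the LTR sequence by the authors, per the labels. Neither the aligner nor the read filters are stated in the sources used. The alignments were used as deposited, as letters placed on the reference, and the call matrices were not used. Per the labels' protocols, 35 PCR cycles were followed by 15 cycles that added 454 adapters, without molecular identifiers.

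At each reference position, A, C, G and T were counted per library, leaving out gaps and N. C to T and T to C were left out as bisulfite changes. Pooled shares were compared by exact sign-flip permutation over 8 libraries (256 patterns). Single substitutions with at least 50 reads in both libraries and at least 5 reads with the change in total were compared by two-sided Fisher's exact test, and by Zelen's exact test of equal odds ratios for genotype by stage. Adjustment ran over all substitutions of a comparison at 0.05. The tests were tested on simulated data. Substitutions named were the 15 most frequent guanine substitutions over 0.5%, those called in 1 direction between genotypes at 2 or more stages, and linked partners. G55C, G100A and G16A were named after their values were seen. Leaving out lower-number libraries in turn was added after the data were seen. Members and lists were chosen with earlier results of these data known. Python 3.11.15, numpy 2.4.6, scipy 1.17.1 and matplotlib 3.10.9 were used.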

Additional observations from a re-analysis of the deposited data

Results flagged for a closer look

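The change from standard culture differed between the genotypes by Zelen's exact test for 20 guanine results, given here as the change in the Dnmt2 mutant minus the change in wild type, in percentage points of reads. At heat shock the values were 2.95 for G13A, 0.744 for G16A, -5.83 for G23A, -5.09 for G26A, 2.80 for G31A, 3.06 for G32T, 2.18 for G47A, 5.95 for G55T, 3.13 for G85T and 2.79 for G115T. G16A, at a CpG guanine, passed at an adjusted p of 0.0466 (Zelen's exact test), with -0.471 in wild type and 0.273 in the mutant. At 3 days the values were 3.98 for G13A, -6.20 for G23A, -4.99 for G26A, 2.97 for G31A, 3.19 for G32T, 2.26 for G47A, 5.26 for G55T, 3.41 for G85T and 2.87 for G115T. At both stages the wild type library under standard culture has a higher library number and its partner a lower one, and the reverse holds in the mutant, so genotype by stage and library set cannot be told apart.

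At 1 day, where the libraries of each genotype come from the same number set, the difference was called for G26A alone among guanine substitutions, at -3.29 (Zelen's exact test, adjusted p = 0.00873). The difference between G26A shares at 1 day and standard was 2.05 in wild type, which passed, and -1.24 in the Dnmt2 mutant, which did not. This call was lost when identical reads were counted once.

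G55C and G100A were also called by Fisher's exact test. G55C had 0 of 2049 reads in the Dnmt2 mutant and 7 of 1859 in wild type after heat shock (Fisher's exact test, adjusted p = 0.0459), and G100A had 6 of 1599 reads at 3 days and 0 of 2609 under standard culture in wild type (Fisher's exact test, adjusted p = 0.0256).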

How the results depend on the processing

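Of 114 alternatives for the comparisons and counts, 108 were kept. A tested comparison was kept when its direction and side of 0.05 stayed, and a count when it stayed close to the main count. Those added after the data were seen were judged by direction alone. The genotype difference could change in direction only, since this design could not pass 0.05. Leaving out substitutions over 0.5% turned the CpG difference to 0.00718 percentage points and the difference between G to A and A to G to -0.126. With the genotypes swapped at the heat shock and 3 days stages, an alternative added after the data were seen, the genotype difference was 0.00907. That value is the difference between the number sets, and the swap at the other stages reverses its sign. Counting identical reads once, which left 6611 reads, gave 0 calls for wild type at 1 day, 5 for the Dnmt2 mutant after heat shock and 0 for genotype by stage at 1 day. Fewer reads were then tested. It also raised G to A over all guanines from 0.651% to 1.02% of bases. Leaving out each stage in turn gave -0.638 to -0.632 for the CpG difference and -0.0628 to -0.0360 for the genotype difference. For single calls, 434 of 462 alternatives kept the call, 28 lost it and 0 reversed it. Mean shares moved by under 1 SD in 25 of 34 alternatives and linkage in 19 of 28.

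The genotype difference was paired by stage only. No replicate block was fitted, because the labels give no replicate numbers and each group has 1 library. Depth limits a share to about 3 reads in 1505 to 2670, PCR copies are counted as reads, and gaps or N exceed 5% at 5 guanines in at least 1 library.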
